A study of Mus musculus with 8 samples.

Results

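Footpad-enriched probes were those whose footpad signal stayed at least 3 log2 units, or 8 times, above a universal mouse reference RNA on all 8 arrays of this series, with little change between stages. M, the log2 ratio of the footpad signal to the reference signal at a probe, was the value that chose them. A probe was selected on 3 conditions. Both dyes gave a signal well above background on every array, and no spot was marked as non-uniform. Its M was 3 or more on every array. Its group means differed by under 1 between stages in each genotype, and by under 1 between genotypes at the later stage, E17.5 (E gives embryonic days). These conditions left 871 of the 42006 probes on the array, and 3.65% of the 23843 probes that were measured in both dyes without a marked spot. The enrichment, both stage differences and the genotype difference at E17.5 are therefore described here with no test.

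Footpad skin of C57BL6 mouse embryos was profiled on 8 two-colour Agilent arrays, in 4 groups of 2 arrays. The groups were wild type (DcWT) and conditional Dicer knockout (DcKO) at E16.5, and the same genotypes at E17.5, and per the labels each array held total RNA pooled from 3 to 5 embryos. The footpad RNA carried Cy3 and the reference carried Cy5 on all arrays, so no dye swap separates a dye effect from enrichment. The allele and the Cre driver, and so the cells of the footpad that lost Dicer, are not given in the sources used here. The 4 arrays of E16.5 lay on 1 slide and the 4 arrays of E17.5 on another, so stage and slide cannot be told apart, while the genotypes were compared within a slide. On both slides DcKO lay at positions 1 and 2 and DcWT at positions 3 and 4, so genotype and position on the slide cannot be told apart at either stage. In pooled skin, fewer cells of a type and less RNA per cell cannot be told apart either.

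Dicer cuts hairpin precursors into mature microRNAs, which pair through their seed with sites in messenger RNAs and lower the stability or translation of those messengers. Footpad skin of the mouse carries the eccrine sweat glands, which grow down from the embryonic epidermis as buds, while the epidermis above them stratifies and forms its cornified barrier. A universal reference is a mixture of RNA from many sources, so a high ratio to it marks RNA that is concentrated in the sampled tissue relative to that mixture. A ratio of this kind ranks probes by contrast with the reference, not by abundance in skin.

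The deposited files give each probe an identifier and its sequence of 60 bases, with the identifier repeated where a gene symbol would stand. Of the 42006 identifiers, 0 was found in a table of 49997 mouse genes. Members are therefore reported by identifier and sequence. The label could not be checked against keratinocyte or sweat gland markers, and the targeted Dicer gene gave no check of the genotype labels. Between 62.0% and 72.0% of the probes on an array were well above background in Cy3, and 71.1% to 79.8% in Cy5.

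The 3 members with the highest mean M are shown first, because they mark the upper end of the enrichment. Each line gives 30 of the 60 bases, from the 5′ end of the probe for Z00012052-1 and Z00040994-1 and bases 31 to 60 for Z00030279-1, where capitals mark the hexamer AATAAA, the common polyadenylation signal of messenger RNAs.
Z00012052-1: cacataaaagtcttcaatggacctactgga
Z00030279-1: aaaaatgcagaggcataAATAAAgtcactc
Z00040994-1: ctgtggctatcttagatcgggtaatagttg
At Z00012052-1, M was 9.84 and 9.66 on the DcWT arrays and 9.64 and 9.80 on the DcKO arrays at E16.5. At E17.5 it was 10.03 and 9.96 in DcWT and 9.86 and 9.85 in DcKO. The genotypes overlapped at E16.5, and at E17.5 both DcWT values were slightly above both DcKO values. The mean of 9.83 corresponds to a footpad signal 910 times the reference signal.

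Z00030279-1 had the second highest mean M, 9.26, with values of 9.44 and 8.92 in DcWT and 9.30 and 9.79 in DcKO at E16.5. Its E17.5 values were 8.99 and 9.23 in DcWT and 9.22 and 9.20 in DcKO. The DcWT and DcKO values overlapped at both stages, and the 2 DcWT arrays at E16.5 lay further apart than the genotype means did. Z00040994-1 averaged 8.98 and was higher on the E17.5 slide. Its values at E16.5 were 8.70 and 8.72 in DcWT and 8.44 and 8.74 in DcKO, against 9.22 and 9.32 in DcWT and 9.36 and 9.34 in DcKO at E17.5. None of the 3 members passed the limma test of DcKO against DcWT at E16.5, with adjusted p of 0.863, 0.359 and 0.504.

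Most members lay far below these 3. The mean M over 8 arrays had a median of 4.25, a 19.1-fold excess over the reference, with its lower quartile at 3.71 and its upper quartile at 5.05. Of the 871 members, 346 had a mean M between 3 and 4, 291 between 4 and 5, 144 between 5 and 6, and 55 between 6 and 7. The remaining 35, or 4.02%, had a mean M of 7 or more, and 12 of these had 8 or more.

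The distribution was alike on every array. At E16.5 the median M of the members was 4.21 and 4.16 on the DcWT arrays and 4.28 and 4.34 on the DcKO arrays. At E17.5 it was 4.20 and 4.29 in DcWT and 4.34 and 4.36 in DcKO. At each stage both DcKO medians lay above both DcWT medians. The median over all measured probes was between -0.06 and -0.04 on every array, where the dye normalization of the processed signals holds it near 0.

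A large ratio can come from a bright footpad signal, a dim reference signal or both, and both held here. The median log2 signal of the members ranged over the E16.5 arrays from 12.11 to 12.40 in Cy3, against 10.21 to 10.45 for all measured probes. In Cy5 it ranged from 7.61 to 7.89 over the same arrays, against 10.19 to 10.44. The E17.5 arrays gave the same order, with Cy5 medians of 7.45 to 8.04 for the members and 9.96 to 10.42 for all. The Cy5 signal of a member stood at a median of 20.4 standard deviations of the local background, against 114 over all measured probes. The lowest value of any member on any array was 0.63, although the scanner program marked every member as well above background. None of the 871 members was marked as saturated in Cy3 on any array. Replicate arrays lay somewhat further apart for the members than for all measured probes. The median standard deviation of M between the 2 arrays of a group was 0.065 to 0.081 for the members, depending on the group, and 0.043 to 0.059 for all measured probes.

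The limits on stage and genotype removed few probes. Of the 894 probes with M of 3 or more on every array, 871 (97.4%) met them, and 97.8% of all measured probes did so whatever their M. Among the 23 that failed, 18 exceeded the limit between stages in DcWT, 15 between stages in DcKO and 4 between genotypes at E17.5, with some over more than 1 limit. The word stable thus separates the members little from other probes. The range of M over the 8 arrays had a median of 0.48 for the members, with extremes of 0.14 and 1.90, against a median of 0.39 for all measured probes.

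Many probes lay close to the limit of 3. The lowest M over the arrays was under 3.2 in 110 members, and 140 other probes that met every other condition had a lowest M between 2.8 and 3. Just inside were Z00021357-1 at 3.00 and Z00022773-1 at 3.00, and just outside were Z00032156-1 at 3.00 and Z00064414-1 at 3.00, equal when rounded. At the limit on the genotype difference at E17.5, Z00026567-1 (0.9996) and Z00023638-1 (0.970) were inside, and Z00073926-1 (1.15) and Z00023057-1 (1.25) outside. On the stage difference in DcWT, Z00033914-1 (0.995) and Z00029918-1 (0.989) were inside, with Z00026946-1 (1.04) and Z00049117-1 (1.08) outside. On that in DcKO, Z00054997-1 (0.994) and Z00053129-1 (0.991) were inside, with Z00072540-1 (1.06) and Z00031819-1 (1.08) outside. For M, the values on both sides of its limit could not be told apart at this precision.

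Within the limits, members varied more between stages than between genotypes. The absolute difference between stages exceeded 0.5 in 96 of the 871 members in DcWT and in 105 in DcKO, against 8.49% and 8.64% of all measured probes. The absolute difference between genotypes exceeded 0.5 in 12 members (1.38%) at E16.5 and in 21 (2.41%) at E17.5, against 1.58% and 3.86% of all measured probes. Of those that moved by over 0.5 between stages, 57 did so in both genotypes, 37 higher at E17.5 and 20 lower. The sign of the stage difference was the same in both genotypes for 736 members. In DcWT 61.0% of members were higher at E17.5, against 45.6% of all measured probes, and in DcKO 62.2%, against 47.6%. The 2 stage differences share no array, but both compare the same 2 slides, and their correlation over the 871 members was 0.83. The counts shared by both genotypes and this correlation are not given here for all measured probes. They therefore show nothing particular to the members.

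Members were slightly higher in DcKO than in DcWT at both stages. At E17.5, where the difference was limited by the choice of members, its median was 0.12, with 5% of members below -0.24 and 5% above 0.37, and 667 members (76.6%) were higher in DcKO. Over all measured probes the E17.5 median was 0.01, with 5% below -0.37 and 5% above 0.35, and 51.3% were higher in DcKO. At E16.5 the median was 0.10, against 0.01 over all measured probes, and 662 members (76.0%) were higher in DcKO, against 51.8% of all. The groups at E16.5 did not overlap in 390 members (44.8%) with both DcKO arrays above both DcWT arrays, against 29.0% of all measured probes. The opposite order held in 106 members (12.2%), against 27.2%. The median of 0.10 compares with a pooled standard deviation of 0.041 for the members' median between replicate arrays. Without DcKO replicate 2 at E16.5 the median was 0.064. The median of 0.10 is an excess of 7.12% in the ratio. With 2 arrays against 2 an exact permutation test of a single value cannot go below p = 0.333, so none was made.

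This small excess was found at every level of enrichment. Its median at E16.5 was 0.10 for members with mean M from 3 to 4, 0.11 from 4 to 5, 0.08 from 5 to 6, 0.10 from 6 to 7 and 0.07 at 7 or more. At E17.5 the same bins had medians of 0.10, 0.15, 0.11, 0.18 and 0.10. The 327 probes at least 3 log2 units below the reference on every array, chosen by the same stability limits, had medians of 0.04 at both stages, with 58.4% higher in DcKO at E16.5. On the Cy3 signal alone, scaled to the 75th percentile of each array, the members' median at E16.5 was 0.08 and 64.6% were higher in DcKO, against 49.6% of all measured probes.

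The genotype differences of single members were also compared between stages, though the E17.5 difference was limited by the rule. The 2 genotype differences share no array but have the same positions on their slides, and both had the same sign in 700 of 871 members, 579 higher in DcKO and 121 lower. With 76.0% of members higher in DcKO at E16.5 and 76.6% at E17.5, many would share a sign through this common excess alone. The correlation of the 2 differences over members was 0.56. Neither the count nor the correlation is given here for all measured probes, so they do not show a recurrence particular to the members. The E16.5 difference is also the sum of quantities on which the rule set limits, so it could not exceed 3 in size for any member, and its observed range was -1.05 to 0.95.

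The series asks, per its title, whether sweat glands need microRNAs after their induction. DcKO against DcWT at E16.5 is the one comparison on which the rule set no limit of its own, and it was tested with limma over all 23843 measured probes. At an adjusted p under 0.05, 15 of the 871 members were called (1.72%), against 2.19% of all probes tested. Of these, 5 were higher in DcKO (0.574%), against 0.650% of all, and 10 were lower (1.15%), against 1.54% of all. In this fit both shares lay near the background. The 5 higher members differed by 0.31 to 0.50 on the log2 scale and the 10 lower ones by -1.05 to -0.27. Each of the 15 had the same sign at E17.5, where the differences were limited by the rule. So did 700 of all 871 members, and DcKO had the same slide positions at both stages. The share among all called probes is not given here.

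The calls depended on single arrays and on the scaling. Without DcWT replicate 2 at E16.5, 0 members and 0 probes in all were called by limma, with 126 members and 3068 probes at an unadjusted p under 0.05. Without any other single array, 1 to 5 members were called. It was 1 when another E16.5 array was left out, beside 13 to 61 of all probes. It was 3 or 5 when an E17.5 array was left out, beside 237 or 225 of all probes. On Cy3 alone 59 members were called, 8 higher and 51 lower, which is 6.77% of members against 2.24% of all probes. With normexp background correction at an offset of 50 and marked spots left out, 74 were called, 36 higher and 38 lower, which is 8.5% against 4.52%. At an offset of 10 the shares were 4.59% and 3.25%. The members' share was thus below that of all probes in the reported fit and above it in these 3 settings.

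Z00057782-1 had the largest difference of any member at E16.5. Its M was 4.46 and 4.56 on the DcWT arrays and 3.44 and 3.49 on the DcKO arrays. The groups did not overlap, and DcKO was lower by 1.05 ± 0.07 (log2 difference ± SE, n = 2 and 2), so the DcWT ratio was 2.06 times the DcKO ratio (limma, adjusted p = 0.0061). At E17.5 its values were 4.59 and 4.69 in DcWT and 3.81 and 3.71 in DcKO, again without overlap. This was the only member still called at an adjusted p under 0.01 and in the fit to the E16.5 arrays alone. It was not called without DcWT replicate 2 at E16.5, where the difference was -0.99, nor with normexp on all spots or with no filter on background, the latter with the same difference of -1.05.

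A second probe read part of the same sequence. Z00034984-1 shares 23 bases with Z00057782-1, shown in capitals in bases 1 to 30 of the member and bases 31 to 60 of the other probe.
Z00057782-1: TATGAGAAATGTAATGCGATTTTattactg
Z00034984-1: tttatttTATGAGAAATGTAATGCGATTTT
Z00034984-1 was no member because its lowest M was 2.73. Its M at E16.5 was 3.25 and 3.38 in DcWT and 2.73 and 2.89 in DcKO, and at E17.5 it was 3.45 and 3.62 in DcWT and 3.09 and 2.90 in DcKO. DcKO lay below DcWT without overlap at both stages, as for the member. Its log2 difference at E16.5 of -0.51 was smaller and did not pass the threshold (limma, adjusted p = 0.0596). The 2 probes share bases and hybridised to the same RNA, so they are not independent measurements.

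Z00064633-1 was the other lower member named by the rule for the test. Its M at E16.5 was 4.08 and 4.11 in DcWT and 3.64 and 3.66 in DcKO, without overlap, a log2 difference of -0.44 ± 0.06 (SE, n = 2 and 2; limma, adjusted p = 0.0257). Its E17.5 values were 4.44 and 4.54 in DcWT and 4.12 and 4.02 in DcKO. Both genotypes were higher on the E17.5 slide and the gap between them was of like size. It missed the threshold whenever any array of E16.5 was left out. It also missed it on the E16.5 arrays alone, with the Cy3 filter, with no filter, with the replicate block, with normexp on all spots and at a threshold of 0.01.

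The higher members named were Z00036221-1 and Z00039648-1. Z00036221-1 had an M of 3.41 and 3.38 in DcWT and 3.90 and 3.89 in DcKO at E16.5, a log2 difference of 0.50 ± 0.05 (SE, n = 2 and 2; limma, adjusted p = 0.0122). At E17.5 it was 3.72 and 3.79 in DcWT and 3.91 and 3.97 in DcKO, so DcKO was close at both stages while DcWT was higher at E17.5. The change of its genotype difference between stages, -0.32, did not pass the threshold (limma, adjusted p = 0.22). Z00039648-1 had an M of 4.68 and 4.49 in DcWT and 5.01 and 5.08 in DcKO at E16.5, a log2 difference of 0.45 ± 0.08 (SE, n = 2 and 2; limma, adjusted p = 0.046). At E17.5 it was 4.47 and 4.34 in DcWT and 4.66 and 4.71 in DcKO, without overlap at either stage. Both missed the threshold whenever any array of E16.5 was left out, and Z00039648-1 did so when any E17.5 array was. On Cy3 alone the adjusted p was 0.0922 for Z00036221-1 and 0.18 for Z00039648-1. Z00039648-1 also missed it with normexp and marked spots left out, at either offset (adjusted p = 0.0819 and 0.0881), and with a trended robust prior (adjusted p = 0.0576). Other settings in which the call was lost were the E16.5 arrays alone, a threshold of 0.01, no filter on background and normexp on all spots for both members, and the Cy3 filter and the replicate block for Z00039648-1.

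The first 30 bases of these 3 members are given so that each can be traced.
Z00064633-1: tatggtagaggagatgctgtgccttgatgt
Z00036221-1: agtgttgtaaagttgtgtgaagagaaacag
Z00039648-1: agtgggacaggcccgagaaacccgttacac

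Some members share a stretch of bases, so their M can be set side by side. Sharing was counted at 20 or more consecutive bases on the same strand, and these groups were chosen after the sequences had been seen. It joined 53 members into 26 groups, 25 pairs and 1 group of 3, which leaves 844 if each group is counted once. Some of these probes differ right beside the shared bases, so a group need not be 1 sequence. The mean M of the 28 overlapping pairs within these groups differed by a median of 0.34, and by under 1 in 25 of the 28. Both probes of a pair had passed the limit of 3, so the rule could leave out pairs with larger gaps. For measured partners that were not members, the gap (member minus partner) ran from -1.53 to 1.29. The genotype differences of the 28 pairs at E16.5 had the same sign in 24 of the 28 and differed by a median of 0.08. Of all members, 76.0% were higher in DcKO at E16.5, which favours a shared sign. Of the 60 measured probes that overlapped a member, 53 (88.3%) were members too, where 3.65% of all measured probes are. These shares are not like for like. Both probes of a pair of members enter the count, but a mixed pair adds only its other probe, which raises the share. A further 5 overlapping probes were left out because they were not measured in both dyes without a marked spot.

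The overlapping pair with the highest M was Z00055675-1 and Z00070141-1, which share 45 bases. The capitals mark the start of the shared part, in bases 11 to 40 of the former and bases 1 to 30 of the latter.
Z00055675-1: tgaatGTTACTGTTCCCAAAATGATTCCCT
Z00070141-1: GTTACTGTTCCCAAAATGATTCCCTGTATT
Z00055675-1 had an M of 7.06 and 6.95 in DcWT and 7.20 and 7.30 in DcKO at E16.5, and 7.22 and 7.29 in DcWT and 7.44 and 7.33 in DcKO at E17.5. Z00070141-1 had an M of 7.68 and 7.54 in DcWT and 7.77 and 7.62 in DcKO at E16.5, and 7.58 and 7.82 in DcWT and 8.16 and 7.89 in DcKO at E17.5. Z00070141-1 was the higher on all 8 arrays, by 0.54 on average. DcKO lay above DcWT without overlap at both stages for the former but only at E17.5 for the latter.

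Probes that share bases were not always this close. Z00073006-1 and Z00073718-1 share 56 of 60 bases and averaged 5.77 and 4.61. Z00013910-1 and Z00074456-1 share 23 bases and averaged 3.41 and 4.57, the largest gap among the pairs of members at 1.17. The 3 members of one group, Z00026043-1, Z00026084-1 and Z00060172-1, averaged 3.68, 4.82 and 4.49. Z00026043-1 and Z00026084-1 share their first 28 bases and then differ, so they may not read the same RNA. The pair Z00025860-1 and Z00062305-1 has the same 60 bases and averaged 4.16 and 4.20, the smallest gap at 0.04. The genotype differences of this pair at E16.5 were 0.14 and 0.28.

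The probes that overlapped a member without being one failed different conditions. There were 12 of them, of which 6 had a lowest M under 3, 3 had a marked spot, 2 were not well above background on every array and 1 exceeded a stability limit. The lowest M of those 6 ranged from 2.27 to 2.98. The 7 that were measured without a mark had mean M from 2.40 to 5.34. Z00025612-1, the member with the sixth highest mean M, overlapped 2 of the 12. Its M was 8.16 and 8.21 in DcWT and 8.25 and 8.16 in DcKO at E16.5, and 9.00 and 9.01 in DcWT and 8.84 and 8.79 in DcKO at E17.5. Its partners Z00054578-1, with 51 shared bases, and Z00049259-1, with 22, averaged 8.43 and 8.36. Z00054578-1 had a marked spot, and Z00049259-1 was not well above background in Cy5 on any of the 8 arrays, so its ratio is uncertain.

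2 probes held 20 or more bases complementary to a member, and neither showed the enrichment. Z00036348-1, complementary to 22 bases of Z00074235-1, had a mean M of 0.16 against 4.35 for the member. Z00028633-1, complementary to 37 bases of Z00075282-1, had a mean M of 0.76 against 3.60. The enrichment at these 2 members was thus seen with the probe of one strand and not with the other.

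Sequence features are given as a description, with no test. The polyadenylation hexamer AATAAA, searched on the probe's own strand, was present in 116 members (13.3%), against 7.92% of all measured probes. Its complement on the other strand, where a probe reads TTTATT, was present in 26 members (2.99%), against 3.17%. The median GC content was 43.3% in members and 45.0% in all measured probes, and 40.0% in the 234 members with a mean M of 5 or more. A reading frame without a stop codon on the probe's own strand was found in 79.4% of members and 82.3% of all measured probes. The sequence ATTTA was found in 7.35% and 7.31%.

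Beside Z00030279-1, the members with the hexamer and the highest M were Z00055040-1, with a mean M of 8.82, and Z00057348-1. The 30 bases around it are bases 17 to 46 and 19 to 48 of the probes, with the hexamer in capitals.
Z00055040-1: ttggagcgaaacAATAAAgcagtaaaaggt
Z00057348-1: attcagacaggaAATAAAgaggagttttta
Members with the hexamer had a median of the mean M of 4.34 and members without it 4.25. Their median genotype differences at E16.5 were 0.12 and 0.09, so neither value set the 2 classes apart by more than a small part of the spread among members.

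Seed sites of 7 microRNAs were counted in the members, since Dicer makes the mature forms. The microRNAs were let-7a-5p, miR-203-3p, miR-205-5p, miR-200b-3p, miR-17-5p, miR-19b-3p and miR-30a-5p, and a site was the complement of bases 2 to 8 on the probe's own strand. At least 1 of the 7 sites was present in 41 members (4.71%), against 3.88% of all measured probes. A probe covers 60 bases of a transcript, so a probe without a site says nothing of the rest of it. The commonest sites were those of miR-30a-5p, TGTTTAC, in 13 members (1.49%, against 0.629% of measured probes), and of miR-200b-3p, CAGTATT, in 8 (0.918%, against 0.596%). The other 5 sites were each in 3 to 5 members.

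The mature sequences of these microRNAs, from RefSeq (GRCm38.p6), are given with the seed in capitals, each followed by the member of highest M that holds its site, with the site in capitals. The member stretches are bases 31 to 60 of Z00074753-1 and 19 to 48 of Z00021885-1.
miR-30a-5p: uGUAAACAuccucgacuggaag
Z00074753-1: aataaagacttcagggtgTGTTTACttgac
miR-200b-3p: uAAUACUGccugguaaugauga
Z00021885-1: accttttgtatCAGTATTatgtaccactag
The 13 members with the miR-30a-5p site differed between genotypes at E16.5 by -0.44 to 0.36, with a median of 0.12, and 12 of them were higher in DcKO. The 8 with the miR-200b-3p site differed by 0.09 to 0.19, with a median of 0.12, and all 8 were higher in DcKO. Of all 871 members, 76.0% were higher in DcKO. For the other sites, 3 of 4 members were higher with let-7a-5p, 4 of 5 with miR-203-3p and 4 of 5 with miR-205-5p. It was 2 of 3 with miR-17-5p and 3 of 3 with miR-19b-3p. None of the members with a miR-30a-5p or miR-200b-3p site was called by limma. An unadjusted p under 0.05 was found for 5 with the miR-30a-5p site and 1 with the miR-200b-3p site. The same held for 206 of the 871 members and 5211 of the 23843 probes tested. Measured probes with these sites, members or not, had median differences of 0.07 and 0.05, against 0.01 over all measured probes. The 41 members with any site had a median difference of 0.10 and the other members 0.10, so these 2 medians were alike. The share higher in DcKO is not given here for the 41 members together.

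Of the 871 members, 4 matched over all 60 bases a window from 250 bases before to 50 bases after an annotated transcript start in RefSeq (GRCm38.p6). A gene can have several such starts, and for 3 of the 4 the start is not the outermost of the gene. The match gives a position and not the gene that the probe was designed for. Z00041441-1 lies on the strand of Ntng1, a membrane-anchored netrin of axon guidance, at bases -17 to 43 around a transcript start inside the gene (chromosome 3, 110143430 to 110143489, minus strand). Its first 30 bases are printed because this is the one member that spans one of these starts.
Z00041441-1: gcgaagaaaaccggggcgaaattgcttcga
Its M was 6.29 and 6.14 in DcWT and 6.32 and 6.44 in DcKO at E16.5, and 5.74 and 5.47 in DcWT and 5.88 and 6.01 in DcKO at E17.5. Both DcKO arrays lay above both DcWT arrays at each stage, and the test at E16.5 did not pass (limma, adjusted p = 0.403).

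The other 3 matches lay before the start of the window they matched. For Tor1aip2 and Gm32710 another start lies further out, so those 2 probes fall within the annotated gene, and the probe at Gm52174 falls outside it. Z00073967-1 (mean M 3.71) lies on the strand of Tor1aip2, a torsin-interacting membrane protein, at -200 to -141 (chromosome 1, 156035836 to 156035895, plus strand). Z00062327-1 (mean M 3.66) lies opposite to Gm32710, a long noncoding RNA, at -215 to -156 (chromosome 9, 10904572 to 10904631). Z00024971-1 (mean M 3.63) lies opposite to Gm52174, also a long noncoding RNA, at -193 to -134 (chromosome 15, 10978653 to 10978712). Positions count from 1 at the transcript start of the matched window, with negative numbers before it.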

How the data were processed

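Per the file headers, Agilent Feature Extraction 9.5.1.1 read the scans. The deposited scanner files hold intensities on a linear scale, among them a processed intensity that the program had background-subtracted and dye-normalized. The authors' series table holds log10 values, which over 24641 probes differed from log10 of processed Cy3 over Cy5 by a constant for each probe, to within 0.00016; its column medians were 2.23 to 2.24. From these files M was computed as the log2 ratio of processed Cy3 to Cy5, and repeated spots were averaged. Feature Extraction marked 269 to 364 of 43451 spots on an array as non-uniform, and probes with such a spot were left out. DcKO and DcWT at E16.5 were compared in limma 3.58.1 (R 4.3.3) with 1 mean for each of the 4 groups over all 8 arrays and Benjamini-Hochberg adjustment over 23843 probes. The fit was tested on simulated data. The number of arrays limits the precision, and p-values measure the spread between pools that the labels call biological replicates. Processed signals were used because the rule uses them.

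The members and lists were chosen with earlier results of these data known. Named members were the 3 with the highest mean M, the 2 probes on each side of each limit, and, among members called at E16.5 with groups that did not overlap, the 2 largest in each direction; probes named for overlaps, motifs or positions were chosen after their sequences or values were seen. Marker lists and the planned matching of probes to proteins needed gene names or protein sequences that were not used here. Alternatives covered the background correction, scaling, filter, fit and each array left out.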

Additional observations from a re-analysis of the deposited data

How the results depend on the processing

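The median genotype difference of the members at E16.5 stayed positive, from 0.06 to 0.14, in the settings that changed the scaling or left out an E16.5 array. It was 0.142 with normexp on all spots. Settings that changed only the filter, the fit or the E17.5 arrays left the members' E16.5 values as they were, so they could not move this median. Calls by limma in all probes and in members (15 with the reported fit) were 1078 and 74 with normexp (offset 50, marked spots left out), and 0 and 0 with normexp on all spots, where 1575 probes and 13 members had an unadjusted p under 0.05. They were 774 and 40 with offset 10 (3.25% of probes, 4.59% of members), 534 and 59 on Cy3 alone (2.24%, 6.77%), and 458 and 4 with a trended robust prior (1.92%, 0.459%). Counts were 98 and 2 with a filter on Cy3 alone, 0 and 0 with no filter (4927 and 143 unadjusted), 21 and 1 on the E16.5 arrays alone, and 21 and 1 at an adjusted p under 0.01. Leaving out each array gave 0 to 237 probes and 0 to 5 members. With the replicate number as a block, 162 probes and 3 members were called; deviations of same-numbered arrays correlated at -0.14 to 0.19 over 6 pairs, so the numbers were not taken to pair samples. The median difference without 1 array ranged from 0.0642 to 0.127. The number of members was 1673 at M of 2 or more and 426 at 4 or more, and 869 to 946 without 1 array. Normexp with marked spots left out met the rule in 607 probes, 601 of them members, and lowered the members' median M to between 3.68 and 3.80. The differences of the 4 members named from the test kept their sign with each normexp setting, with median centring and on Cy3 alone. Leaving out a single array could not reverse them, because these members were chosen with groups that did not overlap. Changes of filter or fit left the differences as they were. The cause of the shifts between settings was not tested. The Cy5 signal of the members stood closer to background than that of all probes (20.4 against 114 background standard deviations).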
